A study of Homo sapiens with 10 samples.

Results

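TCERG1L, DPP6, TMEM132C, TMEM132D, FZD10, CSMD1, PTPRT and TAFA5 are genes in stretches of the genome where induced pluripotent stem cells are known to keep the heterochromatin mark H3K9me3 that embryonic stem cells lack. They were taken by name, and all 8 were found among the 20037 protein-coding genes of the annotation. H3K9me3 regions were measured in each gene body and in a window that adds 500 kb on each side. The windows of TMEM132C, TMEM132D and FZD10 overlap on chromosome 12, so that the 8 windows form 6 separate loci with a joined length of 12.7 Mb.

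The cells were BJ fibroblasts, an established line from human foreskin, in which H3K9me3 was profiled by CUT&RUN. In that assay an antibody on permeabilised cells brings in a nuclease that releases the DNA around the mark for sequencing. The values come from the group given siRNA against ERH at 5 nM in 2 rounds 3 days apart, with 3 samples that the authors merged into 1 list of regions. The study also profiled H3K9me3 in 3 samples given control siRNA, and SOX2 in 2 control and 2 ERH siRNA samples taken 48 hours after infection with Sendai virus carrying the reprogramming factors OCT4, SOX2, KLF4 and c-MYC. Values of those groups were not analysed here, so a region below shows that H3K9me3 was called in ERH knockdown fibroblasts and carries no comparison with control cells. The knockdown is transient, the cells in the list were not reprogrammed, and the list holds no value per sample and no read depth. No standard deviation, test between groups or depth can therefore be given for any value.

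H3K9me3 is written by methyltransferases such as SETDB1 and the SUV39H enzymes, is bound by HP1 proteins, and marks compacted, silent chromatin. ERH is a small conserved protein whose fission yeast relative takes part in RNA elimination and heterochromatin assembly at meiotic genes. When fibroblasts are reprogrammed, most of the genome takes on the methylation pattern of embryonic stem cells, but some large stretches keep H3K9me3 and lack the non-CG methylation of pluripotent cells. The genes treated here lie in such stretches, and most of them act in the nervous system and are not fibroblast genes.

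The H3K9me3 list held regions around all 8 genes, but unevenly. TCERG1L was the most covered, with 27.8% of its body in regions, and PTPRT had none in a body of 1158 kb. Of the 8 gene bodies, 6 shared at least 1 bp with a region (75%, exact 95% binomial interval 34.9 to 96.8%, which covers counting error only), and 2, FZD10 and PTPRT, did not. Among all protein-coding genes the share with a region was 10.5%. Gene length moves with that share, which was 0.755% for genes under 10 kb, 7.78% for 10 to 100 kb, 31.5% for 100 to 500 kb and 77.5% for 500 kb or more. The 3 genes of 100 to 500 kb, TCERG1L, TMEM132C and TAFA5, all had a region, as did 3 of the 4 genes of 500 kb or more, DPP6, TMEM132D and CSMD1. For genes of the longer class a region in the body is common in this list and says little by itself, and the part of length in the count of 6 was not tested.

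With their flanks joined, the 6 loci held 78 regions (exact 95% Poisson interval 61.7 to 97.3), or 6.12 per Mb against 3.40 per Mb over chromosomes 1 to 22, X and Y. Regions covered 427 kb, or 3.35% of the joined windows, against 1.63% over those chromosomes. The 8 gene bodies joined were covered over 185 kb of 6.12 Mb, or 3.02%, and TCERG1L alone held 32.9% of these covered bases. Without TCERG1L the joined bodies were covered over 2.10% and the joined windows over 2.63%. All 8 windows held a region, which says little, since 86.9% of all protein-coding gene windows did. A covered share above that of the chromosomes was found for 6 of the 8 windows and for 26.9% of all protein-coding gene windows. Neighbouring windows share regions, so neither the 8 nor all windows are independent.

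**Figure D1:**
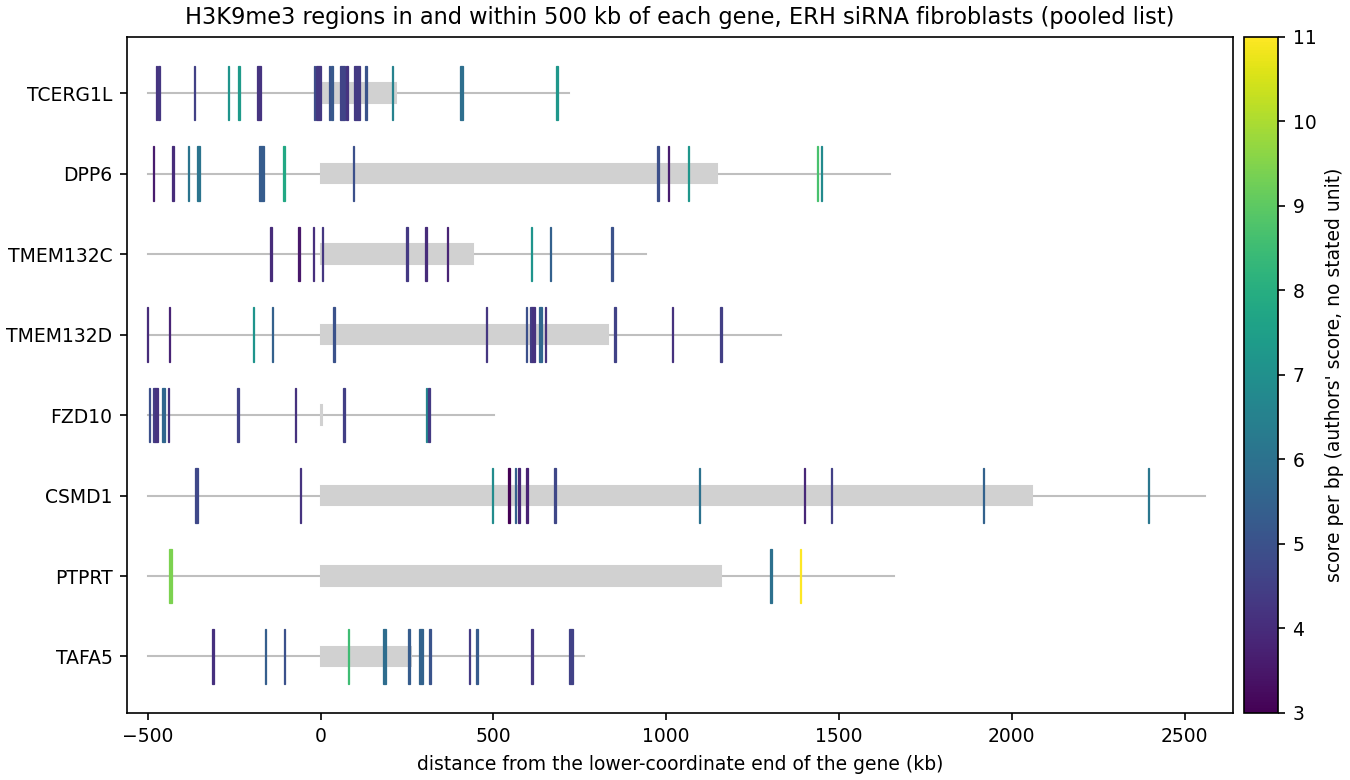
H3K9me3 regions (coloured bars) in each gene body (grey box) and 500 kb flanks (grey line). The x axis is the distance in kb from the lower-coordinate end of the gene, and colour gives the authors' score per bp, with a minimum bar width that widens short regions. TCERG1L has 8 regions in its body, PTPRT has none, and 2 of the 3 regions beside PTPRT, at 9.43 and 10.98 score units per bp, have the highest values in the map.

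**Figure D2:**
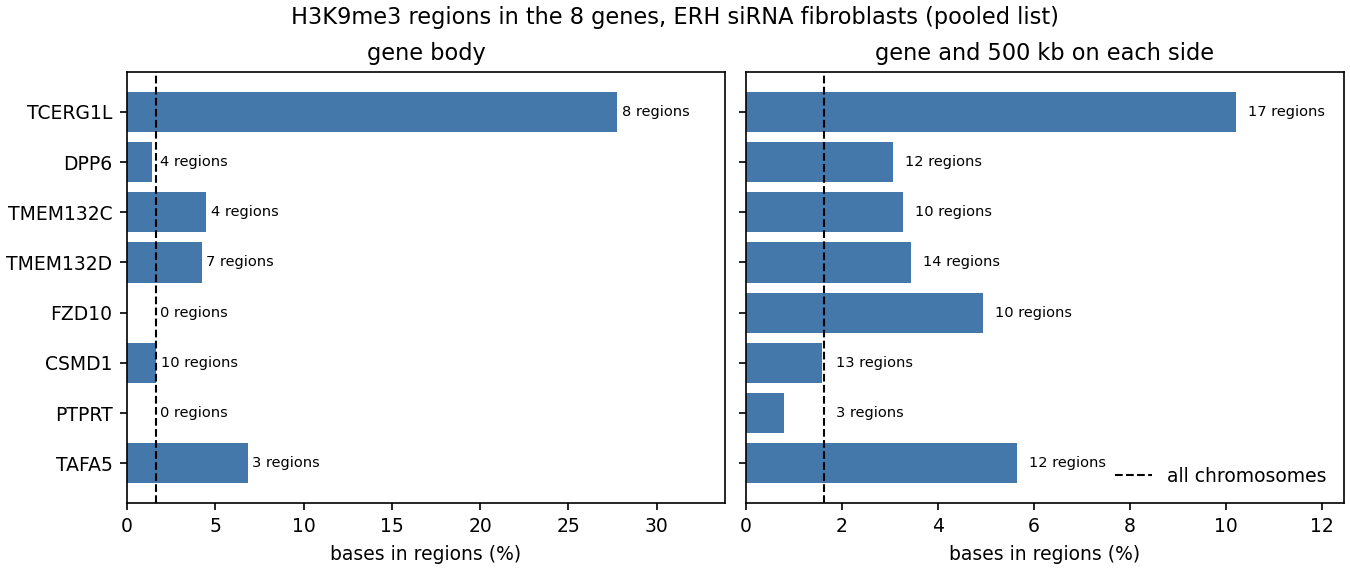
Percent of bases in regions for each gene body (left) and window (right), with the number of regions beside each bar and the covered share of all chromosomes, 1.63%, as a dashed line. TCERG1L is the longest bar in both panels, and only CSMD1 and PTPRT lie below the line in the right panel.

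TCERG1L encodes a little-studied protein and lies on the reverse strand of chromosome 10 at 131092391 to 131311721 (GRCh38). Its body held 8 regions with 60.9 kb of the 219 kb. The covered share was the third highest of the 3356 protein-coding genes of at least 100 kb, after ANKRD30BL with 37.3% and ZNF678 with 29.7%. The longest region spanned 131190140 to 131207064 (16925 bp), and the next longest 131147357 to 131163197 (15841 bp). Most regions lay in the part of the gene away from its start, where 7 of them had midpoints 87.8 to 224 kb from the start. The farthest of these spans the end of the gene, and its midpoint lies just outside. The eighth lay at 131298761 to 131301518, 10.2 kb inside the gene. The covered share was 10.0% in the flank beyond the gene's end and 2.70% in the flank before its start, so that the H3K9me3 regions continued past the end of the gene and thinned out on the other side. The whole window held 17 regions, 13.9 per Mb (exact 95% Poisson interval 8.12 to 22.3), and a covered share of 10.2%. Only 1.78% of all protein-coding gene windows had as high a share.

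The promoters that could be placed lay outside the regions, as did nearly all promoters of protein-coding genes. Sequences of 250 bases before to 50 after a start were found in the RefSeq table (GRCh38.p14) for 6 of the 8 genes, with 10 starts, and FZD10 and CSMD1 had no entry. DPP6 gave more of the 10 starts than any other gene, so medians over them weigh it most. None of the 10 stretches shared a base with a region (a count of 0 allows a share of up to about 30%). That says little, since only 0.122% of 22199 such stretches of protein-coding genes did. Distances from these starts to the nearest region ran from 3.31 kb at TMEM132C to 206 kb at an inner start of DPP6, with a median of 41.1 kb against 157 kb for all protein-coding starts, and 2 of the 10 starts had a region within 5 kb against 1.89% of all. The 250 bases before the start held 9 to 58 CpG dinucleotides (the letters CG, which read the same on both strands) with a median of 33, against a median of 16 over all such promoters, of which 96.8% held at least 1. Of the 10, 8 were at or above that median. Below are 3 of these upstream stretches with CpG in capitals, 5′ to 3′ on the gene's strand, chosen to set the CpG-rich starts of the 2 genes with the most covered bodies beside the CpG-poor outermost start of DPP6. TCERG1L (chr10:131311722-131311971, reverse strand) has 43 CpG, TAFA5 (chr22:48489303-48489552, forward strand) has 58 and DPP6 (chr7:153747883-153748132, forward strand) has 9.
TCERG1L: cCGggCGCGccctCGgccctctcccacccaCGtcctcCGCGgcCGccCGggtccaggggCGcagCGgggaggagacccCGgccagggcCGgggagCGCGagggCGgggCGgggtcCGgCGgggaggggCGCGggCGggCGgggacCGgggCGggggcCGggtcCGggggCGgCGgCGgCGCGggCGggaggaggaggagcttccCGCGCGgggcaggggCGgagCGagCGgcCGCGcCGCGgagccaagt
TAFA5: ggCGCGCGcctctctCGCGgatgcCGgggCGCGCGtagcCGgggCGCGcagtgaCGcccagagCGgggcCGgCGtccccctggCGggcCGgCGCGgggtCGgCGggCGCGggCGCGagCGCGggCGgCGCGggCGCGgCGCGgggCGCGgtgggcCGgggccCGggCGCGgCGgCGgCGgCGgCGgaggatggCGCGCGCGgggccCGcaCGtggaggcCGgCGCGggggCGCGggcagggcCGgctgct
DPP6: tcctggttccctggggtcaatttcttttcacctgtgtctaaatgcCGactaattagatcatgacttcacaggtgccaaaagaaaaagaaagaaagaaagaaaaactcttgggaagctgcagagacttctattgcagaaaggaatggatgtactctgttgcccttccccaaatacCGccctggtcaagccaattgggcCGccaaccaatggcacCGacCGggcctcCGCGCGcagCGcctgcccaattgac
The nearest region lay 10.2 kb from the TCERG1L start, 80.1 kb from this TAFA5 start and 94.4 kb from this DPP6 start. A count of 43 CpG or more was found in 1.24% of all promoters, one of 58 or more in 0.0135% and one of 9 or more in 67.4%.

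DPP6 encodes a peptidase-like protein without enzyme activity that serves as an auxiliary subunit of Kv4 potassium channels in neurons. It lies on the forward strand of chromosome 7 at 153748133 to 154894285. The body of 1146 kb held 4 regions and was covered over 1.45%, close to the chromosome-wide 1.63% and above the median of 0.827% for the 315 genes of 500 kb or more, of which 86 had as high a share. The 4 regions sat near both ends of the gene. One lay 94.4 kb from the outermost start, at 153842518 to 153846081, and 3 lay 975 to 1062 kb from it, with a stretch of 877 kb without any region between them. The inner starts at 153887042, 153887334 and 154052398 all fell in that stretch. More of the mark lay outside the gene. The flank before the start held 6 regions and was covered over 8.71%, with the longest at 153568747 to 153584205 (15459 bp), whereas the flank beyond the end held 2 and was covered over 1.15%. The window held 12 regions, 5.59 per Mb (Poisson interval 2.89 to 9.77).

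TMEM132C and TMEM132D encode single-pass membrane proteins of a family with adhesion-like domains that is expressed in the nervous system, and they follow each other on chromosome 12. TMEM132C (forward strand, 128267170 to 128707911) held 4 regions in its body of 441 kb, which covered 4.50%. Of the 3041 genes of 100 to 500 kb, 149 had as high a share. Its first region, at 128271300 to 128274753, lay 3.31 kb inside the start, the smallest distance from a start to a region among the 6 genes with a start. The longest, at 128513788 to 128521429 (7642 bp), lay 246 kb from the start, and the regions of the body had scores per bp of 3.79 to 4.34. Both flanks held 3 regions, with 2.97% covered before the start and 2.48% beyond the end.

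TMEM132D (reverse strand, 129071726 to 129904025) held 7 regions in 832 kb, which covered 4.24%, and 11 of the 315 genes of 500 kb or more had as high a share. Of its regions 5 formed a cluster between 129665185 and 129725270, 179 to 235 kb inside the start, with the longest at 129682886 to 129691235 (8350 bp). The cluster held regions of 4.13 to 5.65 score units per bp. Outside it, the body had a region near the end of the gene, at 129107791 to 129112542, and one at 129550362 to 129553389, and the stretch of 438 kb between them was the longest in the window without a region. A further region lay 17.0 kb before the start. The windows of TMEM132C and TMEM132D were covered over 3.27% and 3.43%, with 6.94 (Poisson interval 3.33 to 12.8) and 7.64 regions per Mb (4.18 to 12.8). These intervals overlap almost wholly, and the windows share 5 of their 10 and 14 regions.

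CSMD1 encodes a very large membrane protein with CUB and sushi domains that restrains complement and acts at synapses. It is the longest of the 8 genes, 2060 kb on chromosome 8 at 2935361 to 4994914. Its body held 10 regions, the most of any of the 8, but they were short, 2497 to 4523 bp, and covered 1.67%. That share was close to the chromosome-wide value, and 69 of the 315 genes of 500 kb or more had as high a share. A group of 6 regions lay between 3432000 and 3615787, and the other 4 were spread over the rest of the body. The region with the lowest score per bp of all 8 windows, 3.02, belonged to this group, at 3477987 to 3482244. The window was covered over 1.58% with 4.25 regions per Mb (Poisson interval 2.26 to 7.27). The value depended on the window, since with 1 Mb on each side it rose to 3.17%, and on faint regions, since no region of the body had a score at or above the median of the list.

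PTPRT encodes a receptor-type tyrosine phosphatase that mediates adhesion between cells, and lies on the reverse strand of chromosome 20 at 42031890 to 43189906. No region overlapped its 1158 kb. A count of 0 allows 2.59 regions per Mb, below the 3.40 per Mb of the chromosomes. Of the 69 protein-coding genes of at least 1 Mb, 8 had no region, and 6 of these, PTPRT included, were as long as PTPRT. The nearest region lay 142 kb before the start, at 43332299 to 43336640, and with the region at 41592678 to 41602694 on the far side it bounded 1730 kb without a region. The window held 3 regions and was covered over 0.801%, and 55.6% of all protein-coding gene windows had as high a share. In this list of fibroblasts that were not reprogrammed, no H3K9me3 region was called in the PTPRT body.

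TAFA5 encodes a small secreted protein of the brain that resembles chemokines, and lies on the forward strand of chromosome 22 at 48489553 to 48751932. Its body held 3 regions in 262 kb, which covered 6.86%, and 63 of the 3041 genes of 100 to 500 kb had as high a share. The longest, at 48668985 to 48677713 (8729 bp), lay 179 kb from the outermost start, and the one at 48569636 to 48572406 lay 3.93 kb before the inner start at 48576340. The flank beyond the end held 6 regions and 8.61% covered bases, the flank before the start 3 regions and 2.06%. The window was covered over 5.65% with 9.51 regions per Mb (Poisson interval 4.91 to 16.6), next to TCERG1L in order, and the intervals of these 2 overlapped.

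FZD10, a receptor for Wnt proteins, lies on chromosome 12 at 130162464 to 130165740 and is 3.28 kb long, shorter than the median region of 3529 bp. No region overlapped it. The nearest lay 69.6 kb below it, at 130088632 to 130092869, and 61.2 kb above it, at 130226957 to 130231936. Its window was covered over 4.94% by 10 regions, 9.97 per Mb (Poisson interval 4.78 to 18.3), but 5 of the 10 were the TMEM132D cluster, 437 to 493 kb away. With 250 kb on each side the share was 2.67%. In order of covered share the windows ran from TCERG1L, TAFA5 and FZD10 over TMEM132D, TMEM132C and DPP6 to CSMD1 and PTPRT. The Poisson intervals of regions per Mb overlapped between every pair of neighbours in this order. The interval of TCERG1L did not overlap that of CSMD1, and the interval of PTPRT did not overlap those of TCERG1L, TAFA5, FZD10 or TMEM132D. They treat regions as independent, which clustered regions are not.

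**Figure D3:**
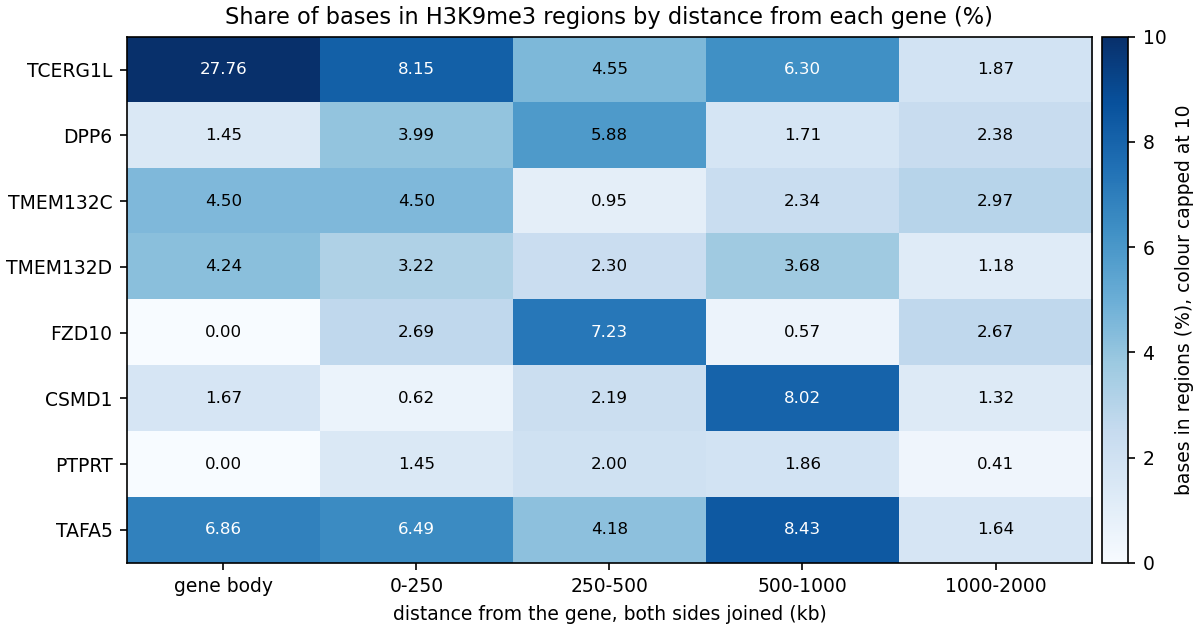
Percent of bases in regions in each gene body and at growing distance from it, both sides joined, in kb, with colour capped at 10%. TCERG1L and TAFA5 stay at 4.18% or more out to 1000 kb, CSMD1 reaches 8.02% only at 500 to 1000 kb, and PTPRT stays at 2.00% or less throughout.

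Beyond the edge of the windows the genes differed. From 250 to 500 kb out to 500 to 1000 kb the covered share went from 4.18% to 8.43% for TAFA5, from 2.19% to 8.02% for CSMD1 and from 4.55% to 6.30% for TCERG1L. It was also higher in the outer bin for TMEM132D (2.298% and 3.68%) and TMEM132C (0.9504% and 2.34%). These 2 bins reach into each other's gene. The 5 regions in that of TMEM132C all lay in the TMEM132D body, and most of the 8 in that of TMEM132D lay in or before TMEM132C. It was lower there for FZD10 (7.23% and 0.572%), DPP6 (5.88% and 1.71%) and PTPRT (2.00% and 1.86%). At 1000 to 2000 kb it lay between 0.408% for PTPRT and 2.97% for TMEM132C, and the values for TCERG1L and TAFA5 there, 1.87% and 1.64%, were near the chromosome-wide share. Within the windows the regions were spaced as separate peaks and not as 1 block. The median gap between neighbouring regions ran from 13.3 kb around FZD10 and 22.7 kb around TCERG1L over 52.9 kb around DPP6, 58.3 kb around TMEM132C, 96.6 kb around TAFA5 and 112 kb around TMEM132D to 185 kb around CSMD1 and 906 kb around PTPRT. The whole list had a median gap of 122 kb. The small gap for FZD10 comes from the TMEM132D cluster, 437 to 493 kb away, and the regions nearest FZD10 lay 69.6 and 61.2 kb from it.

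Regions around these genes were longer and fainter than those of the list. The authors' score has no stated unit, so it is divided by region length and compared only within this list. The 78 regions had a median length of 4314 bp against 3529 bp and ranged from 2431 to 16925 bp. Their median score per bp was 4.89 against 6.98 for the list, and 68 of the 78 lay below that list median, against 49.7% of the other 10429 regions. The difference was present within each length class. The 37 regions of 3 to 5 kb had a median of 4.48 against 6.69 for other regions of that length, and 29 of them lay below the 25th percentile of those, 5.39. The 20 regions of 5 to 10 kb had 4.55 against 6.71, the 8 of 10 kb or more 4.95 against 9.34, and the 13 under 3 kb 6.51 against 7.21. The last class is limited from below, because the lowest score in the list was 12640 and a region of 3 kb therefore cannot have less than 4.21 per bp.

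**Figure D4:**
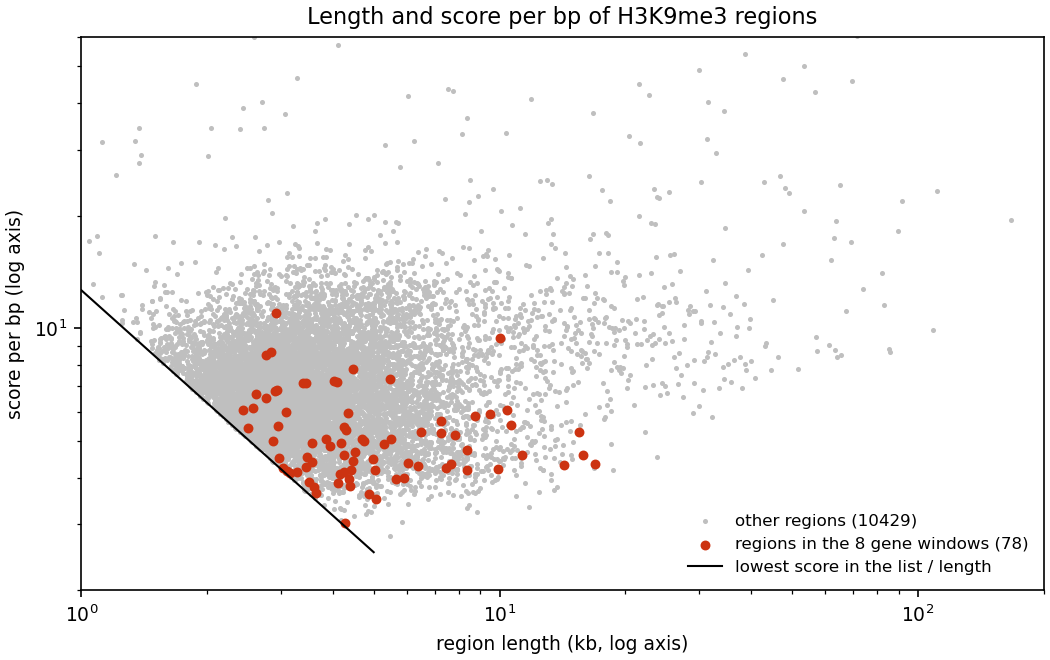
Length in kb against score per bp for the 78 regions in the 8 gene windows (red) and the 10429 other regions (grey), both on log axes, with the lowest score in the list divided by length as a line. The red points lie mostly along the lower edge of the grey cloud, and 78 regions of the list fall outside the axes. No region of the windows had more than 10.98 score units per bp.

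The faint signal was common to 7 of the 8 windows. The median score per bp was 4.17 for TMEM132C, 4.45 for TMEM132D and FZD10, which share regions, 4.69 for CSMD1, 4.86 for TCERG1L, 5.16 for TAFA5 and 5.68 for DPP6, and it was 9.43 for PTPRT. A median below that of the list was found for 33.4% of all protein-coding gene windows with a region. Windows with few regions vary more, so windows with at least 10 regions were also compared, with a limit of 5 score units per bp that was chosen after the values were seen. Of 952 such protein-coding gene windows 30, or 3.15%, had a median under 5, and 5 of these were TCERG1L, TMEM132C, TMEM132D, FZD10 and CSMD1. Among windows with any region, a median under 5 was more common for long genes. The share was 9.21% for genes of 500 kb or more, such as TMEM132D and CSMD1, and 1.97 to 3.75% in the shorter classes. None of the 78 regions had more than 20 score units per bp. That says little, since such regions hold a small part of the covered bases of the list. Without them the chromosome-wide share was 1.55% against 1.63%.

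A position near a chromosome end was shared by 7 of the 8 genes. TAFA5 lay 2.05 Mb, TCERG1L 2.47 Mb, CSMD1 2.94 Mb, FZD10 3.07 Mb, TMEM132D 3.33 Mb, DPP6 4.38 Mb and TMEM132C 4.53 Mb from the first base or from the last gene or region of the chromosome, which stood in for the chromosome end. PTPRT lay 21.1 Mb away. Of all protein-coding genes, 13.5% lay within 5 Mb by the same measure, a distance chosen after the values were seen. Windows of those 2704 genes had a median covered share of 1.33%, against 0.925% for all protein-coding gene windows, and 41.2% of them exceeded the chromosome-wide share. Against these genes near ends, a covered share as high as that of TCERG1L was found for 3.85%, as that of TAFA5 for 7.69%, as that of FZD10 for 9.69%, as that of TMEM132D for 16.3%, as that of TMEM132C for 17.0%, as that of DPP6 for 17.9% and as that of CSMD1 for 42.5%. Their median window score per bp was 7.995, and one as low as that of TMEM132C was found for 0.174% and as that of DPP6 for 7.38%.

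Relatives of the 8 genes are mostly shorter, with a median length of 72.8 kb against 637 kb. Of 27 paralogues, 8 had a region in the body (29.6%, exact 95% binomial interval 13.8 to 50.2%), against 10.5% of all protein-coding genes. The share was 7.78% for genes of 10 to 100 kb, but of these 8 only DPP4 (82.0 kb) was that short. The others were 476 to 1403 kb long, and 31.5% of genes of 100 to 500 kb and 77.5% of longer ones had a region. The part of length in the count of 8 was not tested. The largest shares were 3.42% for CSMD3, 3.41% for DPP4, a membrane peptidase, and 2.24% for DPP10, like DPP6 a potassium channel subunit. TAFA2 (1.65%), TMEM132B (1.60%), TAFA1 (1.40%), CSMD2 (0.965%) and PTPRK (0.598%) followed. None of the 9 other frizzled genes had a region, a count of 0 that allows a share of up to about 33.3%. Most of these are under 10 kb long, a length at which 0.755% of protein-coding genes had a region, so the count says little. TMEM132B, on the same chromosome as TMEM132C and TMEM132D, had a window covered over 3.53% with a median score per bp of 4.60, values close to those of its relatives, and lay 7.58 Mb from the end. The median window share of the paralogues was 1.02% and their median window score per bp 6.46, and 1 of the 27 lay within 5 Mb of an end.

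Neuronal adhesion and synapse genes, with a median length of 1048 kb, were compared as long genes of the same tissue. Of 28 such genes, 25 had a region in the body (89.3%, exact interval 71.8 to 97.7%). The share was 77.5% for all genes of 500 kb or more. Of the 8 genes here 6 had one, and 3 of the 4 of that length. The neuronal list is not all of that length. CNTNAP4 (283 kb) and CNTN6 (311 kb) are shorter, and neither had a region. The 28 neuronal genes had a median covered share of 0.967% of the body and 1.31% of the window, against 2.95% and 3.35% for the 8 genes. Their median window score per bp, 5.52, lay between the 4.77 of the 8 genes and the 7.61 of all protein-coding gene windows. The 3 with the largest covered share were SDK1, a synaptic adhesion gene, with 12.8% in 20 regions, DSCAM with 3.55% and DLGAP2 with 2.48%. SDK1 had a window covered over 6.88%, between TAFA5 and TCERG1L, with a median score per bp of 4.83 and a distance of 3.30 Mb from an end. Within 5 Mb of an end lay 7 of the 28 neuronal genes, against 7 of the 8 genes and 13.5% of all protein-coding genes. The differences between the lists, and the parts of length and position in them, were not tested.

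**Figure D5:**
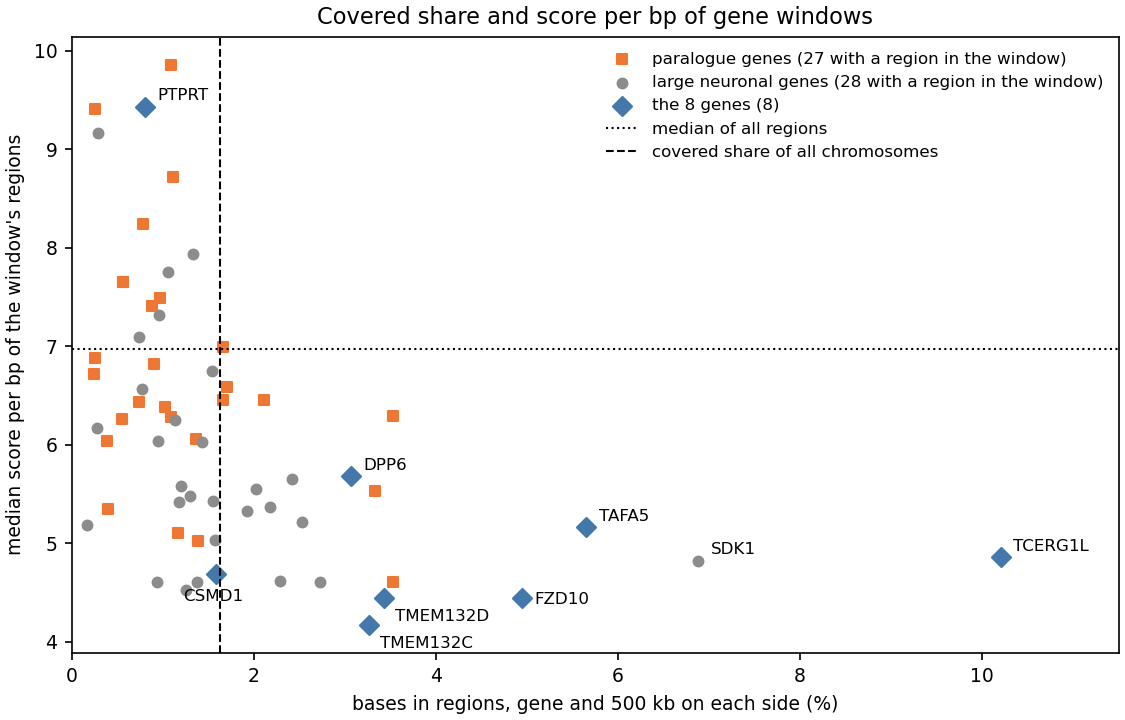
Covered share of the window (x, percent) against the median score per bp of its regions (y) for the 8 genes (blue), 27 paralogues (orange) and 28 large neuronal genes (grey). Lines mark the chromosome-wide share of 1.63% and the list median of 6.98. Of the 8 genes 7 lie below the horizontal line, PTPRT lies above it at 9.43, and SDK1 lies between TAFA5 and TCERG1L in covered share.

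Other genes in the windows were mostly lncRNA genes. Of 16 protein-coding neighbours within 500 kb, 3 had a region in the body, against 10.5% of all protein-coding genes. These were GLT1D1, a glycosyltransferase-like gene between TMEM132C and TMEM132D, with 5.80% covered by 2 regions, CHD6, a chromatin remodeller next to PTPRT, with 4.63% covered by 1, and RIMBP2, a presynaptic scaffold gene beyond FZD10, with 2.70% covered by 2. These 3 genes are 131 to 320 kb long, and 31.5% of protein-coding genes of 100 to 500 kb had a region. All other protein-coding neighbours are under 100 kb, and the part of length in the count of 3 was not tested. Of 98 lncRNA genes 13 had a region, against 8.09% of all lncRNA genes. TMEM132D-AS1 was covered over 79.1% of its length, LOC105378563 in TCERG1L over 72.0%, LOC105375577 before DPP6 over 90.0% and LOC124901782 beyond DPP6 over 83.2%, all named after their values were seen. The list has no strand, so a region in an antisense gene cannot be told apart from one in its host.

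Of 4 microRNA genes in the windows, 1 lay in a region, against 0.704% of 1562 microRNA hairpins. MIR4535 at 48780295 to 48780353 on chromosome 22 lay wholly in the region at 48775011 to 48785683 (10673 bp, 5.52 score units per bp), 23.1 kb beyond the end of TAFA5. MIR3201, on the other side of TAFA5, lay 53.2 kb from its nearest region, MIR378C near TCERG1L 43.5 kb and MIR3612 in TMEM132C 19.3 kb. The mature sequences of the covered and the uncovered microRNA at TAFA5 (RefSeq, GRCh38.p14) are shown with the seed, bases 2 to 8, in capitals, and the seeds differ.
hsa-miR-4535: gUGGACCUggcugggac
hsa-miR-3201: gGGAUAUGaagaaaaau

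The labelled cell type could not be checked, because a list of a chromatin mark holds no expression. Of 16 fibroblast genes, 2 had a region, DCN and PDGFRA, and so did 0 of 4 epithelial, 0 of 3 endothelial and 0 of 5 pluripotency genes. The last 3 lists are too short for a count of 0 to set a useful limit on the share. With 10.5% of all protein-coding genes holding a region, nothing is read from these counts.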

How the data were processed

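H3K9me3 CUT&RUN in ERH siRNA BJ fibroblasts (3 samples, 1 merged list) was the only measurement used. The authors deposited 10536 regions with 6 columns and no header: chromosome, start, end, a score without a stated unit, a running number and a letter. Bowtie2 2.3.4.1, SAMtools 1.16.1, bedtools 2.27.1, deepTools 3.5.0, R 3.6.3, SEACR 1.3 and build hg38 are named, without their role, per the submitters' processing notes. Merging of replicates, threshold and control library are not given in the sources used here, nor is depth.

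Genes and sequences came from RefSeq tables of GRCh38.p14, with no exons or genome, so regions were not assigned to exons or introns. Covered share is the percent of bases in regions on chromosomes 1 to 22, X and Y (10507 regions), an overlap needs 1 bp, with the last gene or region taken as a chromosome's far end. Scores per bp are score over length. Intervals given with counts are exact Poisson or binomial at 95% and cover counting error only. Upper shares for a count of 0 are approximate, 3 divided by the number looked at. For judging the alternatives, covered shares had Wilson intervals on bases divided by the median region length. The median score per bp had one from its ranked values. Such intervals are wide for short genes, 0 to 80.5% for the FZD10 body. No test was made, since 1 pooled list has no replicates. The arithmetic was tested on simulated data. Python 3.11.15, numpy 2.4.6, scipy 1.17.1, pandas 2.3.3 and matplotlib 3.10.9 were used.

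The 8 genes, the lists of paralogues, neuronal genes and markers, and the rules for naming were chosen with earlier results of these data known. All 8 genes are named, with paralogues that had a region, the 3 most covered neuronal genes and protein-coding neighbours with a region. Alternatives were regions of at least 5 kb, a score at or above the median, joining within 5 kb, leaving out split or dense rows, an overlap of 1 kb, and windows of 250 kb or 1 Mb.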

Additional observations from a re-analysis of the deposited data

How the results depend on the processing

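The 8 alternatives gave 170 further values for 24 results, of which 140 stayed within 1.5 times the count or within the interval of the value. Many of these could not move. The windows held 0 regions with a running number above 1 and 0 above 20 score units per bp. Leaving out split or dense rows therefore could not change any covered share of the 8 genes. An overlap of 1 kb could act only on regions at an edge and changed none of these shares. Values unchanged under these alternatives are no sign of robustness. Without dense rows the share of the chromosomes itself fell to 1.55%, and 7 of the 8 windows then exceeded it, with CSMD1 at 1.58% among them. The covered share of the joined windows, 3.35%, stayed above that of the chromosomes in each alternative, by 1.76 to 2.43 times. With regions of at least 5 kb, which drops the shorter ones by construction, it was 1.91% against 0.789% for the chromosomes, the gene bodies were covered over 1.59%, 28 regions were in the windows and 4 paralogues had a region. With scores at or above the median of the list the windows were covered over 1.98% against 1.12%, the gene bodies over 1.57%, 32 regions were in the windows, 4 of the 8 windows exceeded the share of the chromosomes, 5 paralogues had a region and the median score per bp was 5.29. Windows of 1 Mb on each side held 119 regions, and 7 of the 8 exceeded the share of the chromosomes. Single genes moved in 20 values, mainly under the first 2 alternatives, where the body of CSMD1 held no region. Leaving out replicates was not possible because the list pools them. No paired analysis was possible because the list holds 1 group with no value per sample. Depth is unknown, so a gene without a region may hold signal below the authors' threshold.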
